A study of Mus musculus with 12 samples.

Results

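Binding of the glucocorticoid receptor (GR) around the gene Myc was read from 11 chromatin immunoprecipitation sequencing (ChIP-seq) libraries of BWTG3 cells, a mouse hepatoma line. A peak was assigned to the locus when its centre lay inside Myc or within 200 kb of either end of it (mm10, chromosome 15, 61985341 to 61990361). This gave 63 peaks, which merged wherever they overlapped into 22 sites, out of 47493 merged regions genome-wide. The locus was chosen by its peak calls and normalized tag counts with dexamethasone, which were known beforehand, so its values with and without dexamethasone are a description and carry no test. All cells were starved of serum for 24 h. The groups were TNFDEX, DEX, TNF and NI, with 3, 3, 2 and 3 libraries. TNFDEX cells received 1000 U/ml recombinant tumour necrosis factor (TNF) 1 h ahead of 1 µM of the synthetic glucocorticoid dexamethasone (Dex). DEX cells received 1 µM Dex alone, and TNF cells 1000 U/ml TNF alone. NI is taken as untreated because the titles name neither agent. Stimulation lasted 3 h in total in the treated groups. This total is the same for DEX and TNFDEX, so the time with Dex may differ between them. The study's title concerns resistance to glucocorticoids brought about by TNF, and its design text calls the replicates biological.

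Myc encodes a basic helix-loop-helix leucine zipper transcription factor that pairs with Max on DNA and drives growth, ribosome production and cell division. It is often overexpressed in liver cancer, and glucocorticoids are known to lower its expression in lymphoid cells. GR is a nuclear receptor that enters the nucleus and binds DNA once a glucocorticoid is bound, mostly at sites away from promoters. Pvt1, a long non-coding RNA gene (chromosome 15, 62037986 to 62260215), lies on the far side of Myc, and its span holds enhancers that act on Myc in several cell types. Myc is the only protein-coding gene in the window. The nearest others, A1bg and Gsdmc, are 1064 kb and 1786 kb away.

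Depth ranged from 39228805 to 51141996 tags per library, and the lists held 2524 to 22590 peaks. A value is the authors' normalized tag count of a peak, that is, its tags scaled to 20000000 per library. The lists hold called peaks alone, and the level of an uncalled site is unknown and need not be 0. The lowest value in a list was between 5.4 and 6.6. Mitochondrial peaks took 0.355% to 0.541% of all tags in 5 libraries (TNFDEX 2, TNFDEX 3, DEX 3, TNF 2 and NI 3), and 0.00645% to 0.0348% in the other 6. These sets are called the high and low mitochondrial libraries. The cells were measured in bulk, so binding in more cells and more binding per cell cannot be told apart.

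The locus held 1 dominant site and 1 site of intermediate signal, both highest in libraries with Dex, among many weak ones. Positions are given from the lower end of the Myc span, the end at which transcription starts. The strongest site was at +32.1 kb (62017314 to 62017496). It lay 27.0 kb beyond the far end of Myc and 20.6 kb before Pvt1, in sequence that belongs to neither gene. The next lay at +193.4 kb (62178630 to 62178812), inside the Pvt1 span and 188 kb from Myc. Of the 22 sites, 17 stayed under 25 in every library.

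**Figure D1:**
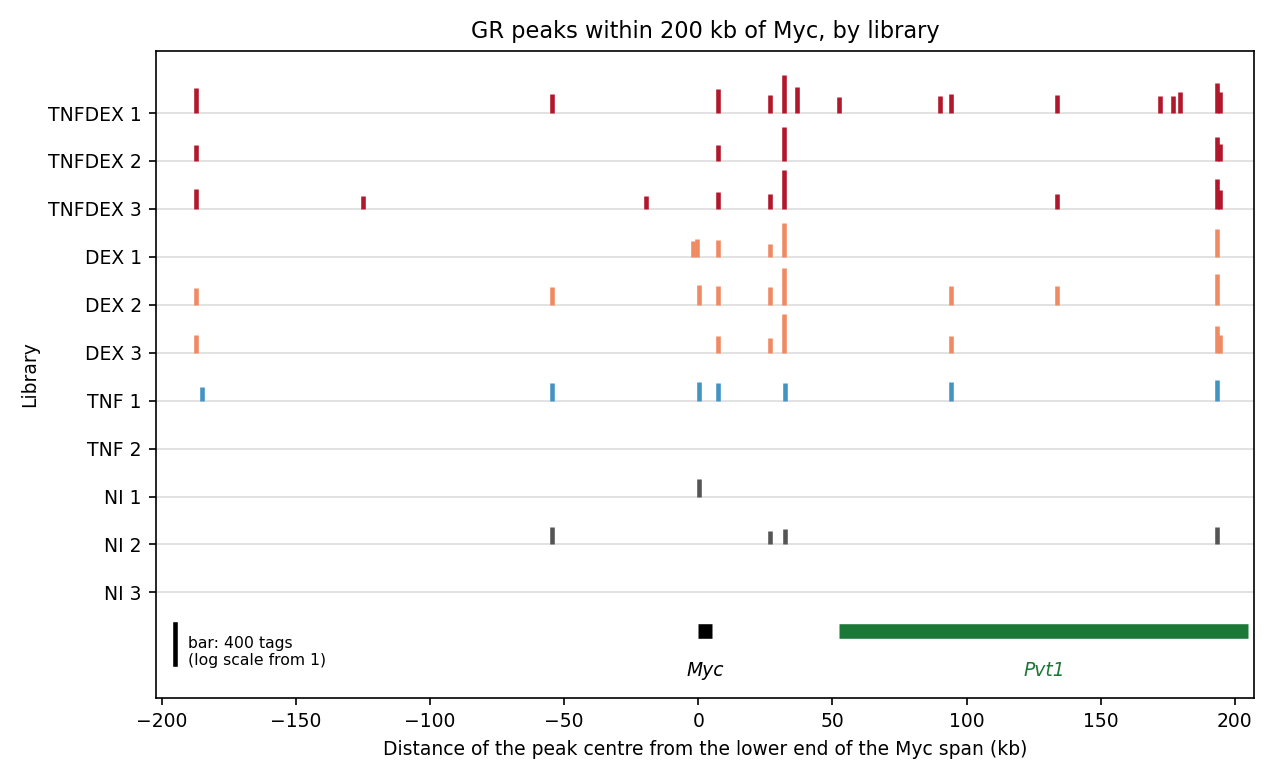
Each row is a library and each vertical bar a GR peak, placed by the distance of its centre from the lower end of Myc in kb, with a height that follows the log of its normalized tag count. The tall bars at +32.1 kb and +193.4 kb stand in all 6 TNFDEX and DEX rows, while TNF 2 and NI 3 are empty.

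The +32.1 kb site was called in every library with Dex and in none without. It held 254.6, 140.4 and 301.4 in TNFDEX 1 to 3, and 155.2, 235 and 282.6 in DEX 1 to 3. The 2 groups overlapped fully, and the lowest value came from TNFDEX 2 and the highest from TNFDEX 3. The means were 232 ± 82.8 in TNFDEX and 224 ± 64.4 in DEX (SD, n = 3 each). These values rest on 313 to 733 tags per library, and the 95% Poisson interval of DEX 1 ran from 138 to 173. The SD was 35.7% of the mean in TNFDEX and 28.7% in DEX, and counting error alone would give 4.39% and 4.79%. The authors' input library held no tag there, which the lists write as 0.5, and the fold over input was between 326 and 702 on that floor.

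Within each list the +32.1 kb peak ranked between 64 and 101 among nuclear peaks by signal. Among nuclear regions called in all 3 libraries of a group it was number 74 of 5776 in TNFDEX and number 79 of 5657 in DEX, within the top 1.28% and 1.40%. Its centre was sharply placed. The 6 centres lay within 17 bp of each other.

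In 2 of the 5 libraries without Dex there was a weak peak beside the +32.1 kb site and not on it. In TNF 1 it held 14.2 (28 tags, 95% Poisson interval 9.43 to 20.5) and in NI 2 it held 9.2 (19 tags, 5.53 to 14.3). Their centres lay 244.5 and 233.5 bp above the median centre with Dex, and they did not overlap any peak called with Dex. Their input held no tag either. HOMER lists no second peak within 2 peak widths, here 316 to 354 bp in the Dex libraries, of a stronger one. The lists therefore cannot show whether the shifted peak was still present with Dex. Of the 2403 regions called in all 6 Dex libraries and in none of the other 5, 85 (3.54%) had another TNF or NI peak centred within 500 bp.

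**Figure D2:**
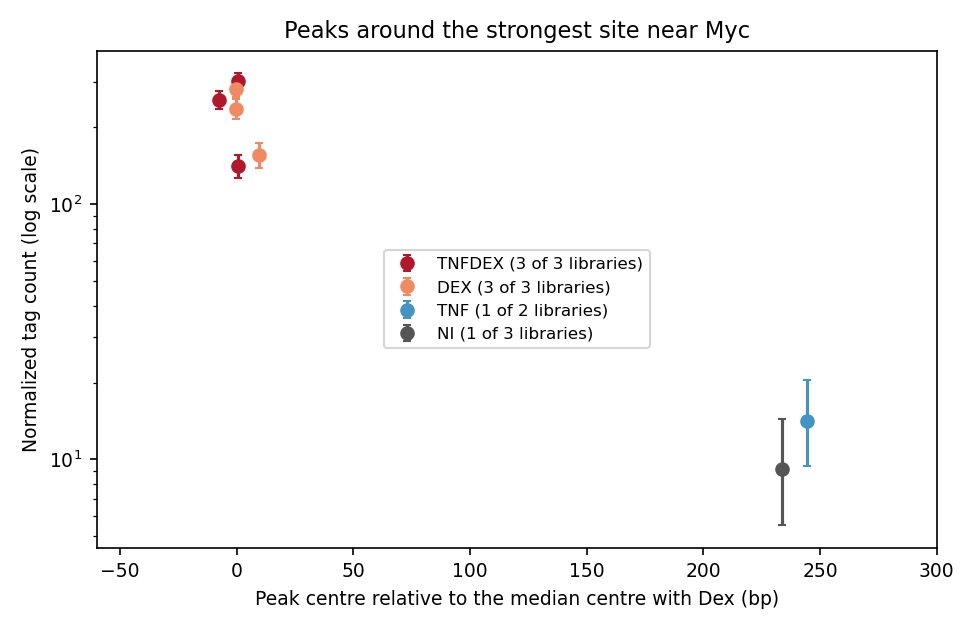
The x axis is the distance in bp of each peak centre from the median centre of the 6 Dex libraries at the strongest site, and the y axis its normalized tag count on a log scale with 95% Poisson intervals. The 6 TNFDEX and DEX peaks sit at 0 with 140.4 or more, and the TNF 1 and NI 2 peaks sit 244.5 and 233.5 bp away with 14.2 and 9.2.

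The +193.4 kb site inside Pvt1 was the second strongest and, unlike the first, was called at the same place in some libraries without Dex. TNFDEX 1 to 3 held 86.3, 34 and 80.6, and DEX 1 to 3 held 63.5, 92.3 and 54.7. TNF 1 held 19.8 and NI 2 held 13.5, with no call in TNF 2, NI 1 or NI 3. Every value with Dex lay above both values without it, and the TNFDEX and DEX groups overlapped. The 8 centres fell within 16 bp. Means were 67.0 ± 28.7 in TNFDEX and 70.2 ± 19.7 in DEX (SD, n = 3 each), placing the site in the top 13.7% and 10.5% of regions called in all libraries of each group.

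The balance between the 2 sites does not depend on how libraries are scaled. The +32.1 kb site held 2.95, 4.13 and 3.74 times the signal of the +193.4 kb site in TNFDEX 1 to 3, and 2.44, 2.55 and 5.17 times in DEX 1 to 3. The groups overlapped. The ratio was 3.74 to 5.17 in the 3 high mitochondrial libraries and 2.44 to 2.95 in the 3 low ones, and the part of that difference in library make-up was not tested. In the 6 Dex libraries the 2 sites together carried 55.3% to 85.01% of the summed signal of called peaks in the window.

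Close to Myc itself GR signal was weak. At the start of the gene (+0.24 kb, 61985464 to 61985698, inside Myc) peaks were called in 3 libraries, with 18.4 in DEX 2, 14.7 in TNF 1 and 12.9 in NI 1. That is 1 library each of DEX, TNF and NI, and no TNFDEX library. In DEX 1 alone, peaks of 13.4 and 10.9 were called 0.334 and 1.98 kb below the gene. A site just beyond the far end of Myc (+7.3 kb, 61992523 to 61992756) was called in all 6 Dex libraries and in TNF 1. It held 36.5, 9.8 and 12.3 in TNFDEX 1 to 3, 11.4, 15.8 and 12.1 in DEX 1 to 3, and 12.7 in TNF 1. TNFDEX 1 stood above the rest, and the TNF 1 value fell within the range of DEX.

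The remaining 5 sites with calls in at least 2 libraries of a group were weak. At -187.2 kb (61797994 to 61798216) TNFDEX held 40.6, 9.8 and 19.7, and DEX held 12.2 and 13.4 in 2 libraries. At +26.7 kb (62011916 to 62012223) 2 TNFDEX libraries held 14.1 and 8.6, the 3 DEX libraries 6.9, 13.8 and 9, and NI 2 held 6.8. At these levels the counting intervals are wide, as with DEX 1 at +26.7 kb, where 14 tags were counted. Inside Pvt1, the site at +194.6 kb (62179870 to 62180067) held 21.6, 11.7 and 16.4 in TNFDEX and 13.4 in DEX 3 alone. The sites at +133.8 kb (62119047 to 62119281) and +94.2 kb (62079491 to 62079670) held between 9.5 and 17.4 wherever they were called, the second also in TNF 1 with 16.2. At each of the 5 sites both TNFDEX and DEX had at least 1 call. The called values of the groups overlapped at -187.2, +26.7 and +194.6 kb, and not at +94.2 and +133.8 kb, where 1 group had a single call.

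**Figure D3:**
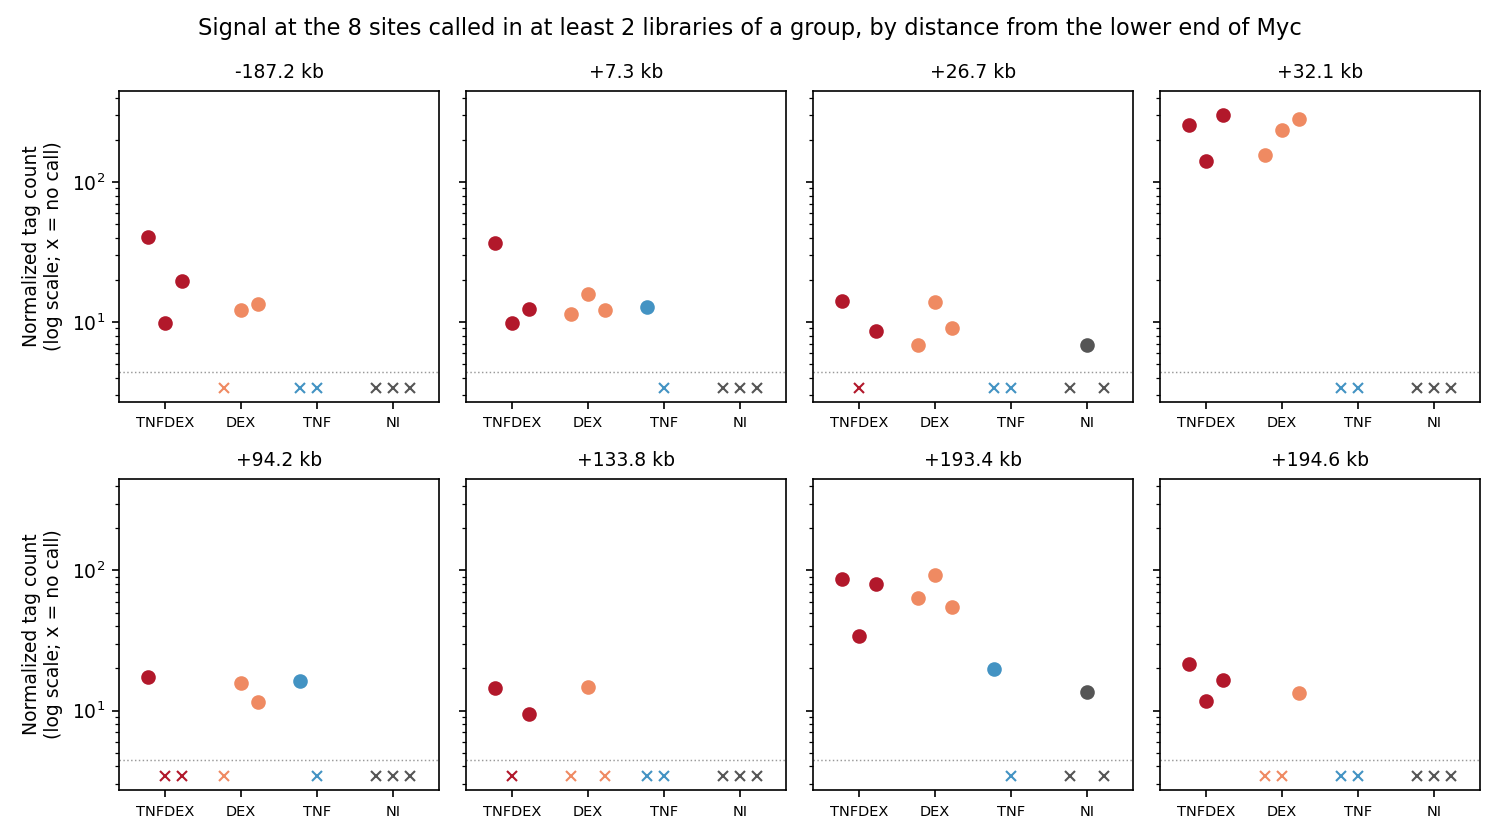
Each panel is one of the 8 sites called in at least 2 libraries of a group, headed by its distance from the lower end of Myc, with the normalized tag count of each library on a log axis and a cross under the dotted line where no peak was called. Only the +32.1 kb and +193.4 kb panels rise above 50, and the TNFDEX and DEX points overlap at all sites but +94.2 and +133.8 kb.

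Of the other 14 sites, 11 had a peak in 1 library alone, and TNFDEX 1, the library with the longest list, supplied 6 of these. The highest was 43.1 in TNFDEX 1 at +36.8 kb, 31.8 kb beyond Myc, and the lowest 6.6. The site at -54.4 kb (61930890 to 61931083) was called in 1 library of each group, with 17.4 in TNFDEX 1, 14.3 in DEX 2, 13.2 in TNF 1 and 13 in NI 2. All of these are low mitochondrial libraries. The outermost peaks inside the window both held 13.4 in DEX 3, at 187 and 190 kb from Myc. The nearest peaks outside it held 18.2 in TNFDEX 1 at 214 kb on the lower side and 49.5 in DEX 3 at 213 kb on the upper side, within Pvt1.

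With Dex the window held more peaks in most libraries. TNFDEX 1 to 3 had 15, 5 and 9 peaks, DEX 1 to 3 had 6, 9 and 7, TNF 1 and 2 had 7 and 0, and NI 1 to 3 had 1, 4 and 0. The libraries with and without Dex overlapped through TNF 1, whose 7 peaks exceeded the 5 of TNFDEX 2. As a share of each library's own list, the window held 0.066%, 0.058% and 0.064% in TNFDEX 1 to 3. The share was 0.057%, 0.069% and 0.054% in DEX 1 to 3, 0.078% in TNF 1, and 0.018% and 0.062% in NI 1 and NI 2. By this share TNF 1 lay above every Dex library and NI 2 within their range, so the counts also follow list length. Among the low mitochondrial libraries the counts were 15 in TNFDEX 1, 6 and 9 in DEX, 7 in TNF 1, and 1 and 4 in NI, and among the high ones 5 and 9 in TNFDEX, 7 in DEX 3, 0 in TNF 2 and 0 in NI 3. Both libraries with an empty window were high mitochondrial ones, and they also had the fewest tags in nuclear peaks of the series (0.179% in TNF 2 and 0.106% in NI 3). The part of library quality in these counts was not tested.

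In the Dex libraries Myc had more peaks around it than most genes. In the TNFDEX libraries 1.57%, 3.87% and 2.29% of the 21887 protein-coding genes had more peaks within 200 kb, and in the DEX libraries 5.6%, 2.89% and 4.54%. The figure was 1.62% in TNF 1 and 53.1% in TNF 2, and 37.0%, 7.03% and 39.6% in NI 1 to 3, where TNF 2 and NI 3 had no peak near Myc. The median gene had 1 to 4 peaks in the Dex libraries. These shares describe rank and not enrichment, since neighbouring genes share peaks.

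Counted as sites called in at least 2 libraries, TNFDEX had 7 at the locus, DEX 6, TNF 0 and NI 0. That is 31.8% of the 22 sites in TNFDEX against 24% of all regions, 27.3% in DEX against 19.6%, and none in TNF or NI, against 1.95% and 4.23% of all regions. There were 5 sites shared by TNFDEX and DEX, while 2 were counted for TNFDEX only (+133.8 and +194.6 kb) and 1 for DEX only (+94.2 kb), and each of these 3 had a peak in 1 library of the other group. Of the 22 sites, 2 (9.09%) were called in every DEX and no NI library, against 8.03% of all regions, and these were +32.1 and +7.3 kb. The +32.1 kb site was the only one of the 22 (4.55%) called in all 6 Dex libraries and in no other, against 5.06% of all regions. All 6 Dex libraries shared 3 sites (13.6%), at +7.3, +32.1 and +193.4 kb, against 8.47% of all regions, and 3 sites (13.6%), at -187.2, +32.1 and +194.6 kb, were called in every TNFDEX and no TNF library, against 8.34%. No site was called in every TNFDEX and no DEX library (0.491% of all regions), in every DEX and no TNFDEX library (0.0463%), in every TNF and no NI library (0.244%) or in every NI and no DEX library (0.0147%). With 22 sites, the shares in every DEX and no NI library and in the 6 Dex libraries alone lie near the background. Without NI 2 or without DEX 1, 4 sites in place of 2 were called in every DEX and no NI library. When peaks up to 300 bp apart were merged, a choice made after the shifted peaks were seen, only 1 remained, since the +32.1 kb site then took in the NI 2 peak.

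The comparison of TNFDEX with DEX asks whether GR signal at Myc with Dex differs when TNF was given first. If the time with Dex also differed, its part cannot be told apart from that of TNF. It was tested with limma over the 4023 regions called in all 6 libraries, of which 3 lie at the locus, and no change was called at any of the 3. Over all regions tested, 1 (0.0249%) was called higher in TNFDEX and 0 (0%) lower, and 259 stood at an unadjusted p under 0.05. The +32.1 kb site differed by -0.13 on the log2 scale (SE 0.24, 95% interval -0.66 to 0.40, limma adjusted p = 0.922), which allows a TNFDEX level between 0.632 and 1.32 times that of DEX. The +193.4 kb site differed by -0.30 (SE 0.31, interval -0.998 to 0.40, limma adjusted p = 0.868), and by -0.63 without DEX 3 and -0.09 without DEX 2. The +7.3 kb site differed by 0.19 (SE 0.35, interval -0.61 to 0.98, limma adjusted p = 0.928). These changes are relative to the other regions. Before scaling, the median region was 0.14 higher in TNFDEX, and the differences were 0.021 at +32.1 kb, -0.15 at +193.4 kb and 0.34 at +7.3 kb. With the mitochondrial set as a term they were, in the same order, -0.21, -0.13 and 0.46 (limma adjusted p = 0.664, 0.852 and 0.382).

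**Figure D4:**
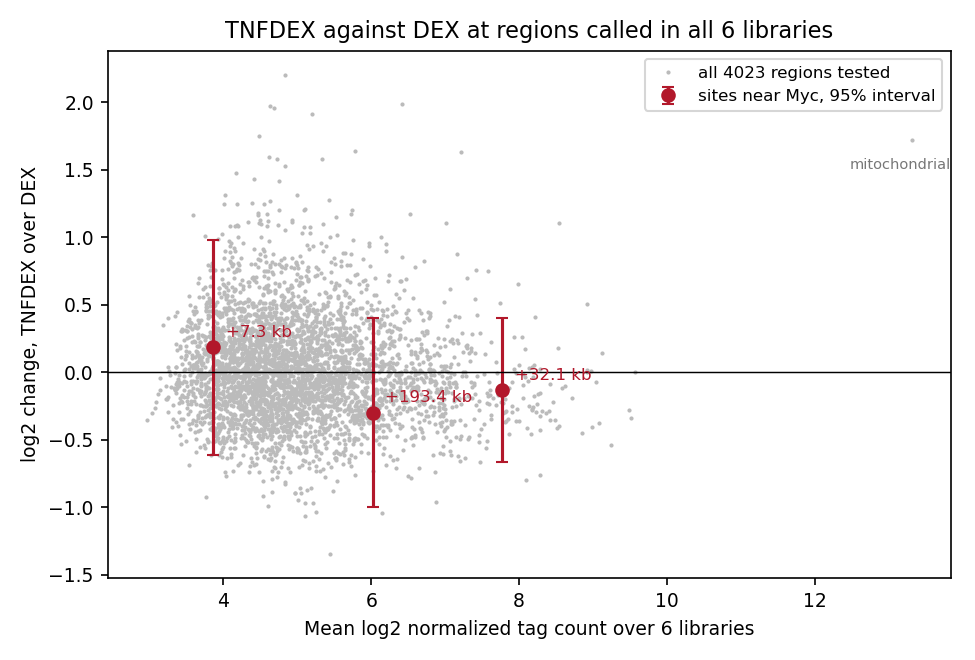
Each grey point is 1 of the 4023 regions called in all 6 libraries, with its mean log2 normalized tag count on the x axis and its log2 change of TNFDEX over DEX from limma on the y axis, and red points with 95% intervals are the 3 sites near Myc. All 3 intervals cross 0, and the points lie within the bulk of the other regions.

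Over the whole window TNFDEX had 9.67 ± 5.03 peaks and DEX 7.33 ± 1.53 (SD, n = 3 each), a difference of 2.33 (exact two-sided permutation p = 0.7, smallest possible 0.1). Without TNFDEX 1 the difference was -0.33, so its sign rested on that library. The summed normalized tag count was 616, 206 and 462 in TNFDEX 1 to 3, over 2580, 800 and 1584 bp of peaks, and 261, 432 and 397 in DEX 1 to 3, over 948, 1530 and 1204 bp. The log2 sums differed by 0.13 (exact two-sided permutation p = 0.8, smallest possible 0.1), and by -0.20 without TNFDEX 1 and -0.09 without DEX 1. The mean value of a peak was 41.1, 41.1 and 51.3 in TNFDEX 1 to 3, and 43.6, 48.0 and 56.7 in DEX 1 to 3. Averaged over the 2 mitochondrial sets the differences were 3.75 peaks (exact permutation p = 0.333, smallest possible 0.111) and 0.26 on the log2 scale (exact permutation p = 0.667). The sets did not agree. In the low set TNFDEX 1 had 15 peaks and a sum of 616, against means of 7.5 and 347 in DEX. In the high set both groups averaged 7 peaks, and the mean sum was 334 in TNFDEX against 397 in DEX 3. With 3 libraries a group none of these permutation tests could reach 0.05, so they do not show that the window was alike in TNFDEX and DEX.

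The signal of the +32.1 kb site over the 6 Dex libraries was most like that of a region inside Smox, which encodes spermine oxidase (chromosome 2, 131508687 to 131508871). There TNFDEX 1 to 3 held 235.6, 140.8 and 297.7, and DEX 1 to 3 held 183.9, 218.7 and 288.2. Likeness was the mean absolute difference in log2 normalized tag count, which takes in the level of signal as well as its pattern over libraries. It was 0.085 for Smox, the smallest, with a median of 2.87 over the 2402 other regions called in exactly these 6 libraries. The next were regions inside Pakap (0.15), 93.5 kb from Moxd1 (0.17), inside Klhl29 (0.17) and inside Parva (0.18).

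Genes that work with Myc or respond to it were counted by regions within 50 kb called in at least 2 libraries. Of 26 genes of the Myc network, 17 had such a region in TNFDEX, 12 in DEX, 1 in TNF and 6 in NI. Myc itself is among the 26 and counts in TNFDEX and DEX, but not in TNF or NI. It was chosen by its calls and signal with Dex, and the network shares below include it. For all protein-coding genes the shares were 39.4% in TNFDEX, 36.5% in DEX, 6.08% in TNF and 14.8% in NI, and for the network 65.4%, 46.2%, 3.85% and 23.1%. Of the network genes, 8 (30.8%) had a region in DEX and not in NI, against 24.7% of all genes, and 2 had one in NI and not in DEX, as did 670 of all 21887. In TNFDEX and not in DEX, 5 (19.2%) had one, against 8.60% of all genes. Of these 5, Fbxw7 and Ruvbl2 also had a region in NI, and they are the 2 counted in NI and not in DEX. The reverse, in DEX and not in TNFDEX, held for 0 network genes and for 1244 of all 21887. The network genes Max, Mxd4 and Mlxipl had a region in TNFDEX only.

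Besides Myc, the strongest network members in DEX were Skp2, Ruvbl1, Mycbp and Mycl. Skp2 encodes the substrate-binding part of a ubiquitin ligase that marks Myc for turnover, and a region inside it was bound without Dex as well. It held 264.6, 119.3 and 198.2 in TNFDEX, 189.9, 237.6 and 207.6 in DEX, 194.7 and 40.8 in TNF, and 106.5, 149.8 and 33.4 in NI. A region inside Ruvbl1, a chromatin ATPase that binds Myc, averaged 46.3 ± 24.0 in TNFDEX and 49.1 ± 3.45 in DEX (SD, n = 3 each), and TNF 1 and NI 2 held 24.8 and 24.6. A region 37.5 kb from Mycbp, which encodes a Myc-binding protein, was called in 2 TNFDEX libraries with 106.2 and 51 and in 2 DEX libraries with 35.2 and 43.3. A region 36.6 kb from Mycl, a paralogue of Myc, averaged 35.9 ± 16.7 in TNFDEX and 33.7 ± 8.10 in DEX (SD, n = 3 each). Neither the Mycbp nor the Mycl region was called without Dex.

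Among 27 known Myc target genes, 16 had a region in TNFDEX (59.3%), 13 in DEX (48.1%), 4 in TNF (14.8%) and 7 in NI (25.9%). For all protein-coding genes the shares were, in the same order, 39.4%, 36.5%, 6.08% and 14.8%. Among the targets 6 (22.2%) had one in DEX and not in NI, against 24.7% of all genes. The reverse held for 0 targets and for 670 of all 21887 genes. In TNFDEX and not in DEX, 3 targets (11.1%) had one, against 8.60% of all genes. A region in DEX and not in TNFDEX was found for 0 targets and for 1244 of all 21887 genes. The strongest was inside Cdkn1a, the gene of the cell cycle inhibitor p21 that Myc represses, with 348, 201.8 and 396 in TNFDEX and 270.7, 320.7 and 424.8 in DEX and no call without Dex. Regions 10.3 kb from Eif4e, a translation initiation factor gene, and 9.0 kb from Rcc1, a nuclear transport gene, averaged 119 ± 48.1 and 68.8 ± 25.5 in TNFDEX and 99.5 ± 73.2 and 61.0 ± 33.4 in DEX (SD, n = 3 each). A region 0.253 kb from the cyclin D1 gene Ccnd1 averaged 53.4 ± 20.8 in TNFDEX and 59.0 ± 14.6 in DEX (n = 3 each), and was also called in both TNF libraries, with 38.5 and 20.7, and in NI 1 and NI 2, with 34.7 and 50.3. A region 15.6 kb from Pkm, which encodes a glycolytic enzyme, held 29 and 21.4 in TNFDEX and 16.4 and 27.1 in DEX. In the limma comparison of TNFDEX with DEX, 0 of 11 regions near network genes and 0 of 11 near target genes were called. Only 1 of all 4023 regions (0.0249%) was called, so these counts do not set the lists apart. Median log2 differences were -0.17 and 0.07, beside -0.015 over all 4023 regions.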

How the data were processed

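GR was immunoprecipitated from BWTG3 cells, and each of 11 libraries has its own peak list. The tools named per the submitters' processing notes are HOMER 4.6, Bowtie 1.0.0 and CASAVA 1.8, and the build is mm10. How duplicates and multiply mapped reads were handled is not given in the sources used here. HOMER's findPeaks in factor mode, per the file headers, compared each library with 1 input at a false discovery rate of 0.001, requiring 4-fold enrichment over input and over 10000 bp around the peak, each at a Poisson p of 0.0001. The deposited signal is tags per 20000000. The deposited ratios are folds over input and surroundings, the deposited p-values are Poisson, the deposited fraction is the focus ratio, and the deposited score is a position-adjusted tag number. These served to describe or filter peaks.

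Peaks sharing 1 bp were merged, and the largest was kept per library. Tags recovered as signal times library size lay within 0.13 of a whole number over all 109273 peaks and gave the Poisson intervals, which cover counting error only. TNFDEX and DEX were compared with limma 3.58.1 (R 4.3.3) on log2 signal without a pseudocount, scaled by an unweighted trimmed mean of M values (30% of M and 5% of A cut at each side), with Benjamini-Hochberg adjustment at 0.05. The fit was tested on simulated data. Tables were joined with pandas 2.3.3 and numpy 2.4.6 in Python 3.11.15, permutation tests used scipy 1.17.1, and figures matplotlib 3.10.9. Genes came from RefSeq GRCm38.p6, which shares mm10 coordinates. The table gives spans without strand or exons. All 53 list genes were found in it. Named were sites called in at least 2 libraries of a group, the 5 strongest genes of each list in DEX and the 5 regions most like the strongest site. The locus, lists and tests were chosen with earlier results of these data known. No sequence of these sites was used here, so the planned motif description was left out. Windows of 100, 500 and 1000 kb, stricter peaks, other merging and left-out libraries were tried as alternatives.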

Additional observations from a re-analysis of the deposited data

How the results depend on the processing

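No alternative called a change at the 3 tested sites. The log2 difference at +32.1 kb was -0.13 but 0.021 with library totals, and -0.24 to 0.013 with 1 library left out (positive without TNFDEX 1), while that at +7.3 kb ran from -0.15 to 0.50 (negative without TNFDEX 1 or DEX 3) and that at +193.4 kb, -0.30 with all libraries, from -0.63 without DEX 3 to -0.09 without DEX 2 (limma adjusted p from 0.209, without DEX 3, to 0.9997, with library totals). Regions called higher genome-wide were 1, but 0 with library totals, 0 above a mean of 20, 2 at 8-fold over input, 18 with the replicate block, 25 with the mitochondrial set as a term, 0 when merged across 300 bp (chosen after seeing the data) and 0 to 17 with 1 library left out (17 without DEX 3). Regions lower were 0, but 1 with that term and 0 to 7 with 1 left out (7 without DEX 3). Same-numbered TNFDEX and DEX libraries correlated at 0.37, -0.37 and 0.58. Over all pairs the sign followed the mitochondrial set, so these values cannot settle whether the numbers pair the libraries. With the block the peak difference stayed at 2.33 (exact permutation p = 0.75, smallest possible 0.25). That difference became -0.33 within 100 kb and -1 among the 8641 strongest peaks per library, and ran from -0.33 to 4.67 with 1 library left out. The log2 sum differed by -0.024 after trimmed-mean scaling and by -0.20 to 0.59 with 1 left out. Sites called within 100 kb were 3 in TNFDEX, 4 in DEX, 0 in TNF and 0 in NI, so there DEX had more than TNFDEX. Within 500 kb they were 19 in TNFDEX, 17 in DEX, 1 in TNF and 1 in NI, and within 1000 kb 36, 30, 4 and 5. Sites in every DEX and no NI library were 2, but 7 within 500 kb, 10 within 1000 kb, 1 when merged across 300 bp and 2 to 4 with 1 library left out. Network genes with a DEX region were 19.2% within 10 kb and 84.6% within 200 kb, and targets 29.6% and 85.2%, as the share of all genes moved to 18.7% and 69.3%. The cause was not tested for the other shifts. In the low mitochondrial libraries alone (chosen after seeing the data) DEX had 4 sites, NI 0, and 2 were in every DEX and no NI library. The +7.3 kb site has no value above a mean of 20. TNF has no value with a library left out, since 1 of its 2 libraries cannot meet the rule of 2. Weak sites rest on as few as 14 tags, so a missing call there is poor evidence of missing binding.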

Other observations

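A region 37.5 kb from Odc1, the gene of ornithine decarboxylase and a known Myc target, held 27.8, 37.2 and 77.7 in TNFDEX 1 to 3 and 7.9, 13.3 and 14.6 in DEX 1 to 3, so the groups did not overlap, as at 2.71% of the 4023 regions tested. TNF 1 and TNF 2 held 13.7 and 7.3 there, and no NI library had a call. The log2 difference between TNFDEX and DEX was 1.75 (SE 0.43, n = 3 each) and failed the correction (limma adjusted p = 0.394). The region was chosen after its values were seen.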
